A study of Rattus norvegicus with 8 samples.

Results

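The interferon response genes are 43 member symbols that comprise interferon-stimulated genes, RNA sensors, the transcription factors of the response and the interferon receptors. They were selected by symbol with earlier results of these data known. Their shares beside all probe sets therefore describe the list and are not an independent test of it. Every probe set annotated to exactly 1 of these symbols was used. Of the 43, 40 had at least 1 probe set, out of 14217 genes named on the array, and Oasl2, Gbp5 and Xaf1 had none in the annotation used here. The 40 genes had 60 probe sets, 27 genes with a single one and 13 with several. A filter on dim probe sets left 54 for testing, in 39 genes. The 6 left out were 1 each of Dhx58, Parp14, Cmpk2, Sp110 and Ifnar1, and the only probe set of Samhd1.

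Interferons are secreted signals that cells release on sensing viral or other foreign or misplaced nucleic acid. Type I interferons bind Ifnar1 and Ifnar2, and the type II interferon binds Ifngr1 and Ifngr2. Both act through Janus kinases on STAT proteins. A complex that contains Stat2 and Irf9 binds a DNA element called the interferon-stimulated response element in the promoters of target genes. The targets encode antiviral effectors, the sensors themselves and feedback inhibitors. In the prostate, as in other epithelial organs, both resident leukocytes and epithelial cells can respond.

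The data are 8 Affymetrix expression arrays of Sprague-Dawley rat tissue, in 4 groups of 2. Pregnant females were injected intraperitoneally from gestation day 8 to day 14, and males of generation 3 were examined. Whole ventral prostate was taken at 180 days of age from the control and the vinclozolin lineage, and epithelium of the ventral prostate at 45 days, again from each lineage. Vinclozolin is a fungicide with antiandrogenic action. The titles give the lineage, whereas the treatment protocol of all 8 samples names only the vehicle, DMSO, so every lineage statement rests on the titles. Each epithelium RNA pooled 11 animals and each whole prostate RNA pooled several. Nothing in the labels says whether both samples of a group were drawn from different animals. The p-values therefore reflect only how far these pools scatter, and that scatter may be technical. Age and preparation changed together and cannot be told apart.

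Array medians of the deposited intensity were 28.7 to 38.7 units, and 28.3% to 36.8% of probe sets on an array were under 16 units. The Spearman correlation over tested probe sets was 0.9715 between whole prostate controls, 0.9566 between the vinclozolin arrays, 0.9518 between epithelium controls and 0.9529 between their vinclozolin arrays. The ratio of the 3' to the 5' control probe set of beta-actin was 3.74 and 3.98 in whole prostate control, 3.37 and 3.14 in vinclozolin, and 2.26 to 2.57 in epithelium. Its part in the results below was not tested. Luminal markers, summed over 9 genes, read 22876 to 23341 on the whole prostate control arrays and 19735 to 20282 on the vinclozolin arrays. On the epithelium arrays they read 21116 to 21824 in control and 23113 to 23240 in vinclozolin. In whole prostate, 1 of the 9 luminal probe sets was called lower (adjusted p = 0.0030 in limma), against 0.925% of all. The median log2 change of the 9 was -0.09. Basal markers, 5 genes, summed to 522 and 549 in whole prostate control and 613 and 624 in vinclozolin, and the endothelial sums overlapped. The samples labelled epithelium also carried stromal RNA. Their 6 fibroblast markers summed to 8062 to 8766, against 2804 to 2850 in whole prostate control and 2485 to 2507 in whole prostate vinclozolin. Their 5 smooth muscle markers summed to 9940 to 11562, against 1810 to 1821 in whole prostate control and 1405 to 1536 in whole prostate vinclozolin.

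The promoters of the members show what the genes share in sequence. RefSeq promoter windows of assembly GRCr8, 250 bases before to 50 bases after the annotated start, were found by gene identifier for 31 of the 40 members. The 9 without a window were Ifi27l2b, Usp18, Mx2, Isg15, Ifit2, Ifitm1, Dhx58, Adar and Ly6e. The core of the response element, here GAAA, any 2 bases and GAAA again on either strand, was present in 17 of the 31 (54.8%), against 3.92% of 33469 promoters of the same length. All 17 were among the 27 members that are not receptors (63%), and 0 of the 4 receptor promoters held it. The stricter form, with CT directly after the last GAAA, was present in 9 of the 31, against 0.278% of all promoters. TTCNNNGAA, the core of the gamma-activated sequence, read the same on both strands and was present in 10 of the 31 (32.3%), against 8.87% of all. A match is a run of letters and not proof of a bound site.

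5 windows are printed as examples, and those of inducible genes were chosen because they hold a match. Not all do: Mx1, Irf8, Irf9 and Stat2, all called higher in whole prostate below, had windows without one. Ifi27 (chr6:128355062-128355361, plus strand), Oas1a (chr12:41330216-41330515, plus strand), Irf7 (chr1:205799974-205800273, minus strand) and Ifitm2 (chr1:205482299-205482598, minus strand) are inducible genes with a match. Ifnar1 (chr11:44211519-44211818, plus strand) is a receptor gene without one. Each is written 5′ to 3′ along the gene's own strand, with matches to the response element core or its reverse complement in capitals.
Ifi27: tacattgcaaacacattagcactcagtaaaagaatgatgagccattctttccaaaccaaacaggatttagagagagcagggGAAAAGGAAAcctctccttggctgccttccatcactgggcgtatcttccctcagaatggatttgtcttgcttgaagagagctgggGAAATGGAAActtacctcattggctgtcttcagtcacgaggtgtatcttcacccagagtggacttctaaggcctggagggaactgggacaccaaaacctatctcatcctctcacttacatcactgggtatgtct
Oas1a: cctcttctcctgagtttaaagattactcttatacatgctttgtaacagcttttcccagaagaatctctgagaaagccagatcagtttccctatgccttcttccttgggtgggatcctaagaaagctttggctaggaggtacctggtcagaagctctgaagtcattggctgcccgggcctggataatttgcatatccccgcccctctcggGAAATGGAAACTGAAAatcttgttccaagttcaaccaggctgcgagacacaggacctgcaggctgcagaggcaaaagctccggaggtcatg
Irf7: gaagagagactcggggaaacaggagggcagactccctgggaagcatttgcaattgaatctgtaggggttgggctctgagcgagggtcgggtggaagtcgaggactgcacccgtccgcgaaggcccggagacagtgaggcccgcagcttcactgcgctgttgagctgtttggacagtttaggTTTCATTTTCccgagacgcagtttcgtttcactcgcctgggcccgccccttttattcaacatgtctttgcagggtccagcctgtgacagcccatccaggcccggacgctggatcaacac
Ifitm2: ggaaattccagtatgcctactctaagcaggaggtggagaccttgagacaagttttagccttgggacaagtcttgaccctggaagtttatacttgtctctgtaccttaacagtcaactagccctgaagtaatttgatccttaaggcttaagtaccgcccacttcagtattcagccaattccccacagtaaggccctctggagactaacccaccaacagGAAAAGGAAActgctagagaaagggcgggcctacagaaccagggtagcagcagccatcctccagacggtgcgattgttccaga
Ifnar1: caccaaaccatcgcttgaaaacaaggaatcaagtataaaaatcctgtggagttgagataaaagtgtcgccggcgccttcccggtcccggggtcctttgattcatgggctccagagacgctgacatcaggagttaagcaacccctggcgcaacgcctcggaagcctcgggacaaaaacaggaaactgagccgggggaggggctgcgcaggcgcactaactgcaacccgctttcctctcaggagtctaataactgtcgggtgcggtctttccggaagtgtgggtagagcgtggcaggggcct

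The matches lay close to the start. Of 22 matches to this core in the members, 17 (77.3%) were centred within 100 bases before the start, against 35.2% of the 1407 matches in all promoters, and 1 was centred after it, in Ifi44. In bases from the start, a pair of overlapping matches in Oas1a was centred at -36 and -30, the match in Irf7 at -64 and that in Ifitm2 at -28, and Ifi27 had matches at -164 and -79. A match was present in 6 of 10 inducible genes called higher in whole prostate (60%) and in 11 of 17 not called higher (64.7%), similar shares that were not tested. Both motifs were present in 5 members, and in Bst2 they overlapped.

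**Figure D1:**
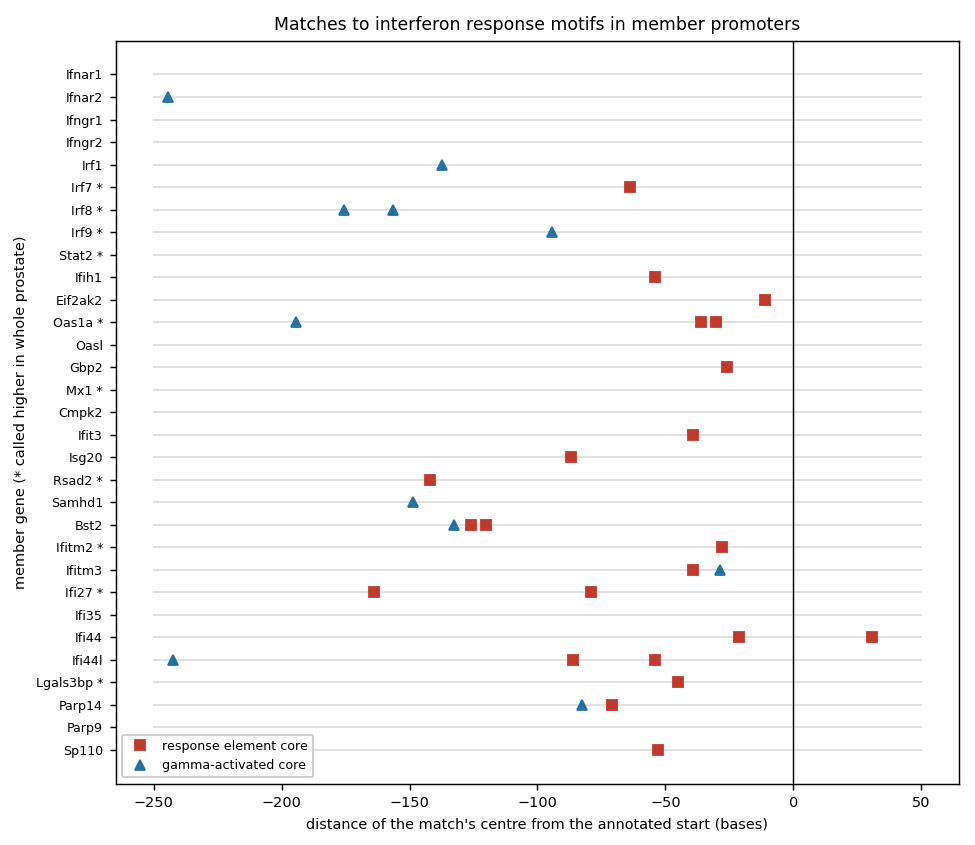
Position of each match to the response element core (squares) and the gamma-activated core (triangles) in 31 member promoters, in bases from the annotated start. Squares gather within 100 bases before the start, and the 4 receptor promoters have no square.

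In whole prostate, 15 inducible genes were called higher in the vinclozolin lineage and no receptor was called. Among the 15, Mx2 was also called lower on its other probe set. The groups of genes were not tested against each other. Of the 44 tested probe sets of members other than receptors, 43 had a positive change, against 48.7% of all tested probe sets, and 1 a negative one, against 51.3%. Both vinclozolin arrays lay above both control arrays for 41 of the 44, against 26.1% of all. The median change of the 44 was 0.76 on the log2 scale, and that of all probe sets was -0.01. In limma's fit over all 21729 tested probe sets, 15 member probe sets in 15 genes were called higher at an adjusted p under 0.05, against 0.819% of all, and 1 was called lower, against 0.925% of all. The count of 15 dropped to 3 on leaving out control replicate 1, to 2 without control replicate 2, to 7 without vinclozolin replicate 1 and to 4 without vinclozolin replicate 2. It was 12 without any single epithelium array, and it was 5 in a fit of the 4 whole prostate arrays alone. The calls of Ifi27 and Ifi27l2b held with every array left out in turn. Those of Mx1, Irf7, Irf9 and Stat2 were lost without any one of the 4 whole prostate arrays, and those of Ifitm2 and Ly6e also without either epithelium vinclozolin array. The calls of Oas1a and of Mx2 on its rising probe set were lost without either control or vinclozolin replicate 2, and that of Irf8 without either control. Isg15 lost its call without either control of either preparation or without whole prostate vinclozolin replicate 2. Changes below are vinclozolin minus control on the log2(intensity + 16) scale, over 2 arrays in each group, and are understated for dim probe sets. Each is given ± its standard error (SE) from the fit. Folds come from the same changes, so for dim probe sets they are smaller than the ratio of the printed readings.

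**Figure D2:**
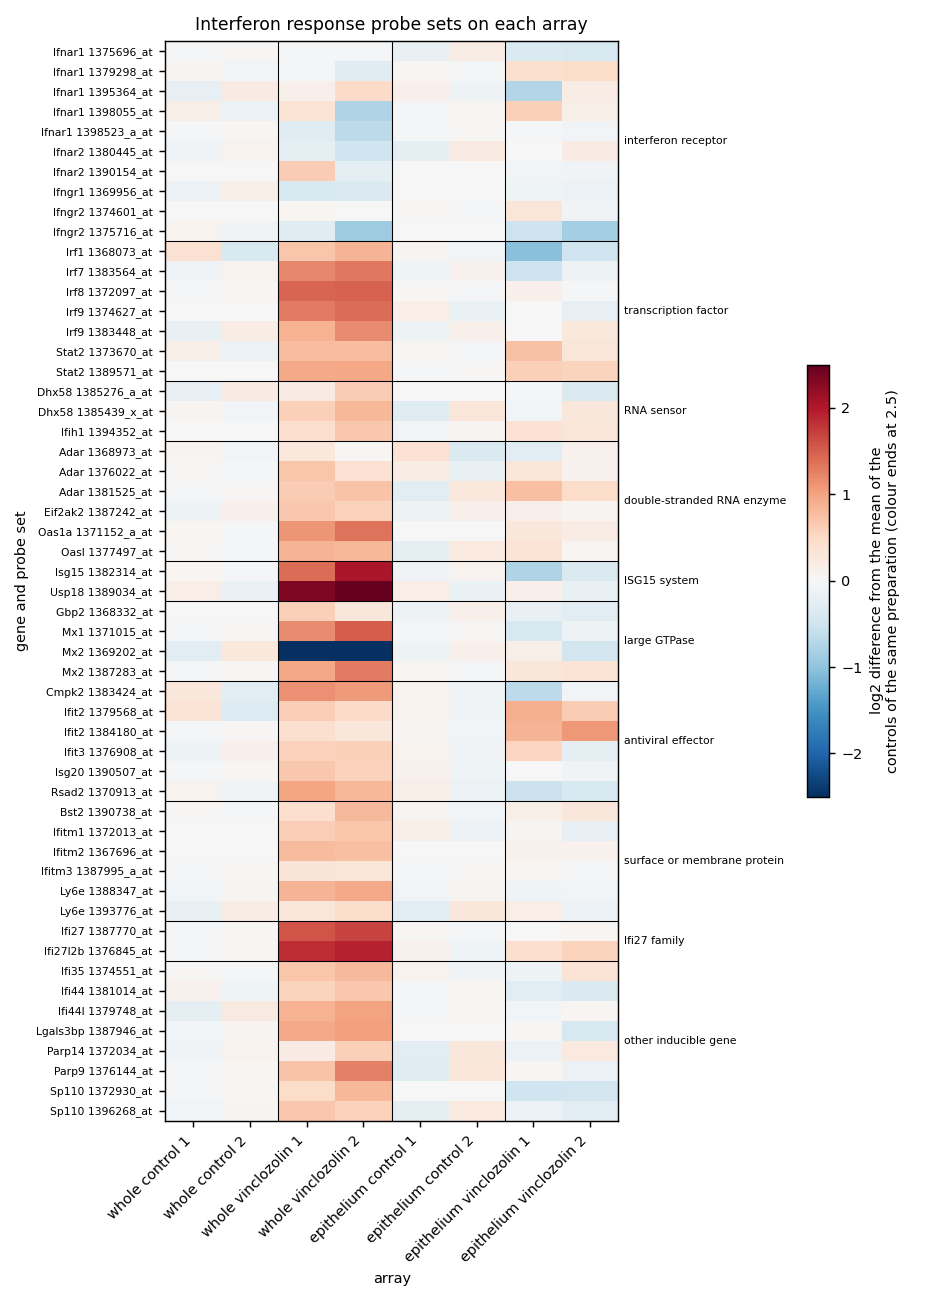
Log2 difference of each of the 54 tested member probe sets (rows, by role) on each of the 8 arrays (columns) from the mean of the controls of the same preparation. Apart from the receptors and 1 probe set of Mx2, rows are red on both whole prostate vinclozolin arrays, while the epithelium arrays show both colours.

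The receptors gave no call in limma; at an unadjusted p under 0.05, 3 of 10 probe sets were lower, against 9.98% of all, and 0 higher, against 8.74%. Ifnar1 had 6 probe sets, of which the 5 tested lay between -0.48 and 0.30 in change, with opposite signs. Those of Ifnar2 measured -0.37 ± 0.19 and 0.19 ± 0.26. Ifngr1, the ligand-binding chain of the type II receptor, read 674 and 810 units in control and 558 and 565 in vinclozolin. These groups did not overlap, and the change of -0.37 ± 0.13 did not pass (adjusted p = 0.20 in limma). Ifngr2, its signalling chain, read 122 and 121 in control and 124 and 116 in vinclozolin on its brighter probe set, a change of 0.02 ± 0.15. Its dimmer probe set read 29.0 and 24.6 in control and 19.8 and 9.5 in vinclozolin without overlap, and this change of -0.59 ± 0.21, the lowest among the tested receptor probe sets, was not called (adjusted p = 0.21 in limma). Over the 10 tested receptor probe sets, 7 changes were negative, 5 had both vinclozolin arrays below both controls (against 27.8% of all probe sets), the median was -0.18 and the lowest adjusted p was 0.16.

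The transcription factors of the response had a positive change in all 7 tested probe sets, none of these overlapped between the groups (26.1% of all probe sets were apart in this direction), and 4 were called (0.819% of all). Irf8, a factor of macrophages and dendritic cells, read 26.1 and 29.5 in control and 114 and 114 in vinclozolin, which was 1.47 ± 0.11 (2.77-fold, adjusted p = 0.0036 in limma). Irf7, which drives the production of type I interferon, read 199 and 227 in control and 519 and 550 in vinclozolin, which was 1.26 ± 0.17 (adjusted p = 0.022 in limma). For both factors the gap between the groups was far wider than the spread within them.

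Irf9, the DNA-binding subunit of the complex with Stat2, read 68.4 and 68.9 in control and 203 and 217 in vinclozolin on 1 probe set, called at 1.35 ± 0.15. Its other probe set read 70.7 and 98.8 against 170 and 214, and its 1.02 ± 0.19 did not pass (adjusted p = 0.059 in limma). Stat2 was called on 1 of 2 probe sets, at 0.96 ± 0.10, from 190 and 188 to 380 and 388 units. The other one, at 0.76 ± 0.17, did not pass. Both genes thus had the same sign on both probe sets. Irf1, a factor induced by type II interferon, read 65.7 and 30.2 in control and 87.0 and 96.4 in vinclozolin. The control arrays of Irf1 lay far apart, and its change of 0.77 ± 0.28 was not called.

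Both genes of the ISG15 system were called higher (0.819% of all probe sets were). Isg15 encodes a ubiquitin-like protein that is attached to other proteins, and Usp18 removes it and also restrains the type I receptor. Usp18 read 129 and 96.9 in control and 646 and 732 in vinclozolin, and it rose 5.32-fold, the highest of the members (2.41 ± 0.19, adjusted p = 0.0038 in limma). That call was lost only without control replicate 2 among the single arrays left out (adjusted p = 0.053). Isg15 read 93.3 and 84.9 in control and 272 and 437 in vinclozolin, so its vinclozolin arrays were the less alike, and it rose by 1.72 ± 0.24.

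Ifi27 and Ifi27l2b, which encode small membrane proteins strongly induced by type I interferon, were the brightest of the called probe sets on the vinclozolin arrays. Ifi27 read 1582 and 1655 in control and 5093 and 5557 in vinclozolin, and it rose by 1.63 ± 0.11 (3.09-fold, adjusted p = 0.0025 in limma). Ifi27l2b read 1039 and 1107 in control and 3832 and 4095 in vinclozolin, and it rose by 1.88 ± 0.13 (3.68-fold). In both genes the gap between the groups was many times the spread within them.

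Among genes for enzymes that act on double-stranded RNA, 6 of 6 probe sets had a positive change (48.7% of all did) and 1 was called (0.819% of all). Oas1a, a synthetase whose product activates RNase L, read 126 and 117 in control and 282 and 341 in vinclozolin, and rose by 1.23 ± 0.13. Oasl measured 0.84 ± 0.19 and Eif2ak2, the kinase that halts translation, 0.63 ± 0.14, and neither was called. Adar, which edits double-stranded RNA, had 3 probe sets at 0.14, 0.54 and 0.68, none called. The sensor gene Ifih1 read 1067 and 1041 in control and 1397 and 1708 in vinclozolin, a change of 0.55 ± 0.13 that was not called (adjusted p = 0.095 in limma). Dhx58, a regulator of the sensors, read at most 34.5 units on these probe sets and measured 0.41 ± 0.21 and 0.71 ± 0.23 on the tested ones, none called.

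The probe sets of Mx2, a large GTPase, disagreed. Mx1 and Mx2 encode dynamin-like GTPases that block virus replication. Mx1 read 65.1 and 70.0 in control and 183 and 233 in vinclozolin, and rose by 1.35 ± 0.16. Probe set 1387283_at of Mx2 read 47.1 and 50.8 in control and 115 and 152 in vinclozolin, and rose by 1.13 ± 0.14, as Mx1 did. Gbp2, a GTPase typical of the type II response, read 76.4 and 79.2 in control and 128 and 96.5 in vinclozolin, and its 0.44 ± 0.15 was not called. Probe set 1369202_at of Mx2 read 171 and 254 in whole prostate control and 12.5 and 8.5 in vinclozolin, and it fell by 3.01 ± 0.26. That call was lost without control replicate 2 or vinclozolin replicate 2 (highest adjusted p = 0.064 in limma). On the epithelium arrays 1369202_at read 13.7 to 30.8 units in both lineages. It was thus high on the whole prostate control arrays alone, and both probe sets carry the same reference accession in the annotation.

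Of the 13 members with several probe sets, 11 had at least 2 tested. In whole prostate the signs matched in 7 of them, namely Irf9, Stat2, Ifit2, Dhx58, Sp110, Adar and Ly6e, and they were opposite in Mx2 and in the receptor genes Ifnar1, Ifnar2 and Ifngr2. In epithelium the signs matched in 3 and were opposite in 8. For Ly6e the 2 probe sets differed in brightness and in call. The brighter read 243 and 271 in control and 472 and 506 in vinclozolin and was called at 0.90 ± 0.12, while the dimmer read 13.5 to 32.1 over whole prostate and measured 0.38 ± 0.23.

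Antiviral effectors had a positive change on 6 of 6 tested probe sets (48.7% of all did), with 1 called (0.819% of all). Rsad2, or viperin, which makes a chain-terminating nucleotide, read 56.5 and 49.2 in control and 126 and 109 in vinclozolin, and rose by 0.90 ± 0.15. That call was lost with any one of the 8 arrays left out (highest adjusted p = 0.21 in limma). Cmpk2, a nucleotide kinase, measured 1.10 ± 0.25, Isg20, an exonuclease, 0.63 ± 0.13, and Ifit3 0.59 ± 0.25, none called. The other probe set of Cmpk2, too dim to be tested, read 9.3 and 15.8 in control and 10.4 and 9.2 in vinclozolin. Ifit2, an RNA-binding protein with tetratricopeptide repeats, had the smallest changes of the effectors, 0.55 ± 0.23 and 0.33 ± 0.13. Samhd1, which breaks down deoxynucleotides, read 1.2 and 2.9 in control and 17.8 and 17.5 in vinclozolin and was too dim to be tested.

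Surface and membrane proteins had a positive change on 6 of 6 probe sets (48.7% of all were positive), all without overlap (26.1% of all), and 2 were called higher (0.819% of all). Ifitm2, which hinders the entry of viruses, read 849 and 864 in control and 1462 and 1415 in vinclozolin and rose by 0.78 ± 0.10 (adjusted p = 0.022 in limma). Its relatives Ifitm1 and Ifitm3 measured 0.66 ± 0.15 and 0.31 ± 0.11, and Bst2, or tetherin, 0.62 ± 0.16, none called. Ly6e, a lipid-anchored surface protein, was the other called gene.

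Among the other inducible genes, Lgals3bp, a secreted galectin-binding glycoprotein, was the only one called (0.819% of all probe sets were called higher). It read 44.5 and 53.1 in control and 115 and 120 in vinclozolin, and rose by 0.99 ± 0.16. That call held only where an epithelium vinclozolin array was the one left out, and was lost with any of the other 6 (highest adjusted p = 0.24 in limma). Parp9 (0.99 ± 0.25), Ifi44l (0.94 ± 0.17), Ifi35 (0.75 ± 0.17), Sp110 (0.64 ± 0.14 and 0.62 ± 0.18), Ifi44 (0.61 ± 0.13) and Parp14 (0.40 ± 0.24) were not called. None of these tested probe sets overlapped between the groups (26.1% of all were apart in this direction). Within the vinclozolin group, replicate 2 was above replicate 1 for 29 of the 44 inducible probe sets (65.9%, against 49.9% of all), with a median gap of 0.09.

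**Figure D3:**
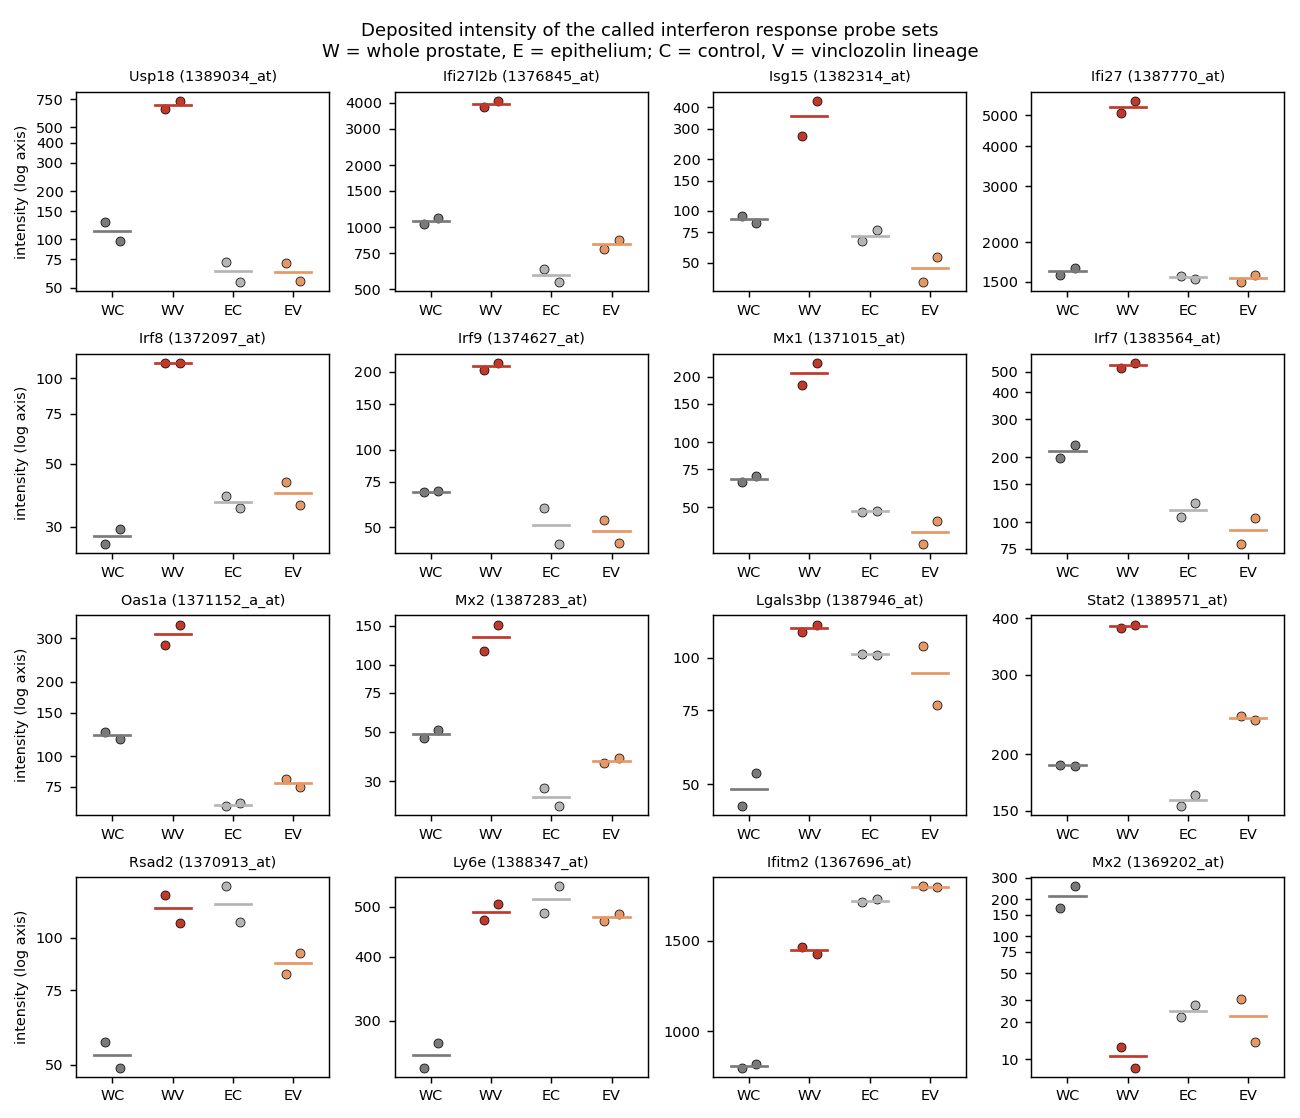
Deposited intensity (log axis) of the 16 member probe sets called in whole prostate, in the 4 groups, with each array as a point and the group mean as a bar. In 15 panels both whole prostate vinclozolin points lie above both controls, and in the last panel, Mx2 on 1369202_at, the whole prostate controls of 171 and 254 lie above all other arrays.

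Beyond the members, 95 other genes of the interferon pathway were listed, likewise with earlier results of these data known. Of these genes, 65 were on the array and 59 had a tested probe set. Of their 74 tested probe sets, 3 were called higher in whole prostate (4.05%, against 0.819% of all) and 0 lower (against 0.925%). The median change was 0.22, against -0.01 over all. Dtx3l, the partner of Parp9 in a ubiquitin ligase complex, read 128 and 114 in control and 275 and 287 in vinclozolin, and rose by 1.10 ± 0.12. Irgm2, an immunity-related GTPase, rose by 0.97 ± 0.17 (adjusted p = 0.049 in limma). Slfn2, of the Schlafen family, rose by 0.87 ± 0.13 (adjusted p = 0.033 in limma). Calls outside the members, here and for the cell markers, were not checked with arrays left out or under other settings. The alpha interferon genes listed had no probe set under their symbol. Among ligands, chosen for mention after their values were seen, Ifnb1 read 0.8 to 3.6 units and Ifng 0.4 to 13.7 over the 8 arrays. Ifnk read 2.5 and 6.5 in whole prostate control and 9.4 and 16.1 in vinclozolin, without overlap. Of all tested probe sets, 26.1% lay apart in this direction. On the epithelium arrays Ifnk read 1.1 to 8.5. All 3 were too dim to be tested. The kinase genes Jak1 and Tyk2 were also chosen after their values were seen, and neither was called: Jak1 measured -0.19 ± 0.11 and -0.04 ± 0.19 and Tyk2 0.01 ± 0.17.

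Some markers of leukocytes were also called higher on these arrays. In bulk tissue, more cells of a type and more RNA per cell cannot be told apart. The 6 leukocyte lists were also chosen with earlier results of these data known. Over these lists, 28 of 39 tested probe sets had both vinclozolin arrays above both controls in whole prostate, against 26.1% of all. Of these 39, 4 were called higher, against 0.819% of all, and 0 lower, against 0.925%, and the median change was 0.62, against -0.01 over all probe sets. The macrophage markers, 14 genes, summed to 970 and 994 units in control and 1753 and 1775 in vinclozolin, with 3 of 14 tested probe sets called. These were Csf1r, the receptor of macrophage growth factor (1.11 ± 0.15), and the Fc receptor genes Fcgr3a (1.17 ± 0.19) and Fcer1g (1.09 ± 0.13), while Adgre1 and Cd163, named after their values were seen, measured -0.24 ± 0.14 and -0.31 ± 0.40. The T and NK cell markers, 12 genes, summed to 237 and 237 in control and 442 and 449 in vinclozolin, with 0 of 7 called. The B and plasma cell markers, 5 genes, summed to 88 and 88 against 165 and 190, and the dendritic cell markers, 5 genes, to 211 and 250 against 353 and 357. The broad leukocyte markers, 6 genes, summed to 2478 and 2540 against 2997 and 3222, with Coro1a called, and the 4 granulocyte markers to 16 and 43 against 16 and 56. Gzmb, Cd79b and Cxcr2 were under 16 units on every array. The 36 inducible members summed to 8261 and 8513 in control and 18793 and 20275 in vinclozolin. The part of the leukocytes in these changes was not tested.

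**Figure D4:**
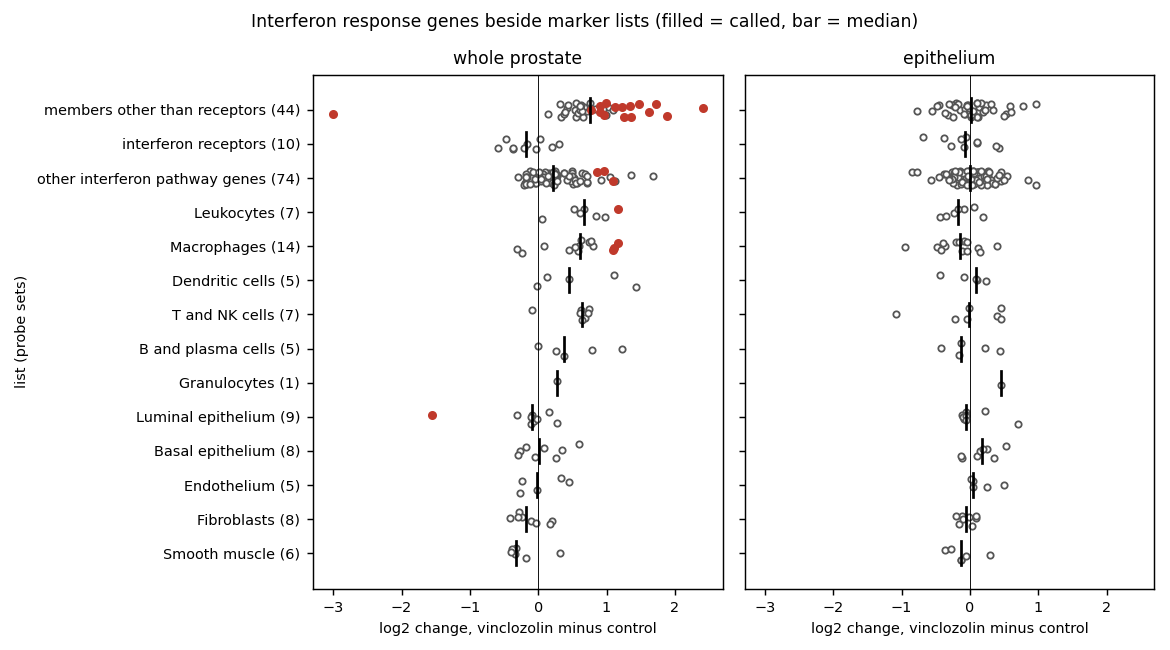
Log2 change of each tested probe set, vinclozolin minus control, in whole prostate (left) and epithelium (right), for the members and the marker lists, with the list median as a bar and called probe sets filled. In whole prostate the medians of the inducible members and the leukocyte lists lie above 0, and those of the receptors and the epithelial and stromal lists around or below it, whereas in epithelium the list medians lie near 0 apart from the granulocyte list, which is 1 probe set.

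In epithelium at 45 days no member was called, and the inducible genes moved in both directions. Of the 44 inducible probe sets 23 had a positive and 21 a negative change, with a median of 0.01, while 49.7% of all probe sets were positive and 50.3% negative. Both vinclozolin arrays lay above both controls for 11 of them and below for 9, against 19.7% of all in each direction. Limma called 0 of the 54 member probe sets, 1 higher and 1 lower among all 21729 (0.0046% each). At an unadjusted p under 0.05, 8 member probe sets were higher, against 5.59% of all, and 6 lower, against 5.78%.

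Ifit2 had the lowest p in epithelium and both of its probe sets pointed the same way. It read 97.9 and 87.7 in control and 174 and 204 in vinclozolin on 1 probe set (0.96 ± 0.13, adjusted p = 0.15 in limma). On the other it read 58.4 and 49.7 against 112 and 91.0 (0.77 ± 0.23). The gene with small changes in whole prostate thus had the highest in epithelium, where neither probe set passed. Stat2 followed, at 154 and 163 in control and 243 and 238 in vinclozolin (0.58 ± 0.10, adjusted p = 0.21 in limma), and then Ifi27l2b at 0.50 ± 0.13.

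The negative changes of lowest p in epithelium were those of Sp110 (-0.48 ± 0.14), 1 probe set of Ifngr2 (-0.69 ± 0.21), Rsad2 (-0.46 ± 0.15) and Irf1 (-0.78 ± 0.28), none called. Irf1 read 451 and 407 in control and 202 and 300 in vinclozolin. Isg15 read 66.5 and 77.1 in control and 38.5 and 54.1 in vinclozolin, a change of -0.56 ± 0.24. For both genes the groups did not overlap, in the direction opposite to whole prostate. The same held for 8 member probe sets in all, those of Mx1, Irf1, Irf7, Isg15, Ifi44, Rsad2, Gbp2 and Sp110, or 8 of 54, against 4.12% of all probe sets. For 11 the vinclozolin arrays lay above the controls in both preparations, against 6.7% of all. Both counts are drawn from the 41 of 54 member probe sets that lay apart higher in whole prostate, against 26.1% of all. This raises both shares. In epithelium alone, 19.7% of all probe sets lay apart in each direction, and a pattern particular to the members was not tested.

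**Figure D5:**
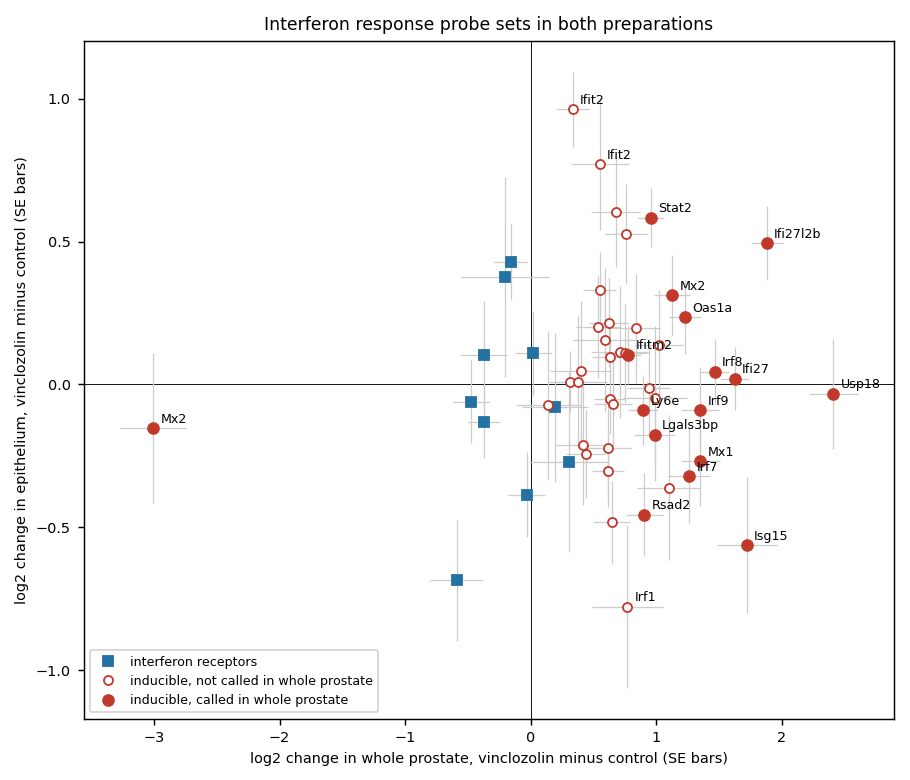
Log2 change, vinclozolin minus control, of the 54 tested member probe sets in whole prostate (horizontal) and epithelium (vertical), with SE bars. The filled circles, called in whole prostate, lie from -0.56 to 0.58 in epithelium, and the receptors (squares) lie from -0.59 to 0.30 in whole prostate.

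The other genes called in whole prostate went in both directions in epithelium. Ifi27l2b read 626 and 543 in control and 781 and 869 in vinclozolin, Mx1 47.5 and 48.1 against 33.8 and 43.3, and Irf7 106 and 123 against 79.1 and 105. Oas1a read 62.9 and 64.4 against 80.9 and 75.1, and probe set 1387283_at of Mx2 28.0 and 23.3 against 36.2 and 38.0. Ifitm2 read 1785 and 1808 against 1917 and 1915, and Rsad2 132 and 109 against 82.2 and 92.0. Ifi27l2b, Oas1a, Mx2 and Ifitm2 thus lay above their controls, and Mx1, Irf7 and Rsad2 below, none of them called. The groups overlapped for Irf9 (59.3 and 43.1 against 53.4 and 43.6), Lgals3bp (102 and 101 against 106 and 77.1) and Ly6e (487 and 548 against 469 and 484, after normalisation).

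The effects in both preparations were compared directly by the difference, epithelium minus whole prostate. It was called for 3 member probe sets, all negative, against 0.12% of all probe sets called in that direction, and for 0 positive, against 0.17%. These were Usp18 (-2.45 ± 0.27, adjusted p = 0.030 in limma), Ifi27 (-1.61 ± 0.16, adjusted p = 0.020) and Irf8 (-1.42 ± 0.16, adjusted p = 0.031). In epithelium Usp18 read 71.9 and 54.1 in control and 70.7 and 54.9 in vinclozolin. Ifi27 read 1568 and 1535 against 1499 and 1581, and Irf8 38.5 and 34.8 against 43.0 and 35.8. The epithelium groups of these 3 genes overlapped. Each of these 3 calls was lost with any one of the 8 arrays left out. For Ifi27l2b (-1.39 ± 0.18, adjusted p = 0.053) and Isg15 (-2.29 ± 0.34, adjusted p = 0.071) the difference did not pass in limma. The difference was negative for 41 of the 44 inducible probe sets, against 49.1% of all, and positive for 3, against 50.9%, with a median of -0.70. Of the 15 probe sets called higher in whole prostate, 7 had a positive and 8 a negative change in epithelium.

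Between the control groups, some members were called in each direction, as were many probe sets of the whole array. Epithelium at 45 days was higher than whole prostate at 180 days for 11 member probe sets, against 12.9% of all probe sets, and lower for 11, against 15% of all. These are 20.4% of the 54 in each direction, and whether these shares differ from those of all was not tested. The higher count was 6 without whole prostate control replicate 2, while the lower count dropped to 6 if control replicate 1 of whole prostate was left out and to 4 if replicate 2 was. Of the 44 inducible probe sets, 28 had a negative difference, against 54.6% of all, and both control epithelium arrays lay below both whole prostate controls for 23, against 37.4%, and above for 12, against 29.2%. Median centring moved the median of all probe sets in this comparison from -0.05 to -0.20. The counts were then 9 higher and 17 lower, against 2246 and 5536 of all probe sets.

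The genes with a higher level in control epithelium included Irf1, all 3 Ifitm genes, Gbp2, Ly6e, Rsad2, Ifit2, Isg20 and Lgals3bp. Irf1 read 451 and 407 in epithelium and 65.7 and 30.2 in whole prostate, a difference of 2.80 ± 0.28 (adjusted p = 0.0012 in limma). Ifitm3 read 1380 and 1453 against 507 and 544 (1.44 ± 0.11), and Ifitm1 462 and 374 against 137 and 142 (1.53 ± 0.15). Gbp2 read 191 and 234 against 76.4 and 79.2 (1.25 ± 0.15). In none of these did the preparations overlap.

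The genes with a lower level in control epithelium included Usp18, Ifi27l2b, Mx1, both probe sets of Mx2, Oas1a, Irf7, Eif2ak2, Ifih1 and 1 probe set each of Stat2 and Adar. Oas1a read 62.9 and 64.4 in epithelium and 126 and 117 in whole prostate, a difference of -0.86 ± 0.13. Irf7 read 106 and 123 against 199 and 227 (-0.80 ± 0.17), and Ifih1 561 and 624 against 1067 and 1041 (-0.75 ± 0.13). The receptors gave no call in this comparison either, with differences from -0.28 to 0.55. Fibroblast and smooth muscle marker sums, given above, were also higher in epithelium, and macrophage sums lower (549 and 578 against 970 and 994). Their part in these differences was not tested.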

How the data were processed

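RNA of 8 samples was hybridised to Affymetrix rat arrays, 1 array each. The authors deposited 1 linear intensity per probe set. Software of the probe summary: not given in the sources used here. The trimmed mean of about 125 on every array shows a common scaling. Control probe sets were removed, log2(intensity + 16) was taken and quantile normalised because array medians differed by 0.291, and probe sets under the 30th percentile of mean level were dropped, which left 21729. One group-means model over all 8 arrays was fitted in limma 3.58.1 (R 4.3.3; 4 residual and 2.62 prior degrees of freedom), with Benjamini-Hochberg adjustment over all tested probe sets and calls at 0.05. Groups are apart where both normalised values of one exceed both of the other. Probe sets were named from the platform annotation, with those of several genes left unnamed. Full values were given for called members, named receptors and the lowest p-values in epithelium. Members and lists were chosen with earlier results of these data known. The fitting was tested on simulated data. Alternatives were other scalings, pseudocounts, filters, variance priors, array weights, a replicate block, separate fits, each array left out and the brightest probe set per gene. The number of arrays limits precision.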

Additional observations from a re-analysis of the deposited data

Results flagged for a closer look

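A difference in the effect of vinclozolin lineage between the preparations was called for 3 members, by the interaction term of the limma fit. Of all probe sets, 0.12% were called in this direction. Each of the 3 calls was lost with any one of the 8 arrays left out and with the replicate number as a block. The difference, epithelium minus whole prostate, was -1.61 for Ifi27, -2.45 for Usp18 and -1.42 for Irf8 on the log2 scale. Age and preparation changed together, so their parts cannot be told apart.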

How the results depend on the processing

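Counts of member probe sets called are given as higher and lower. No result checked for its sign reversed under any alternative. The check covered the inducible probe sets in whole prostate and the epithelium changes of lowest p. It also covered the called differences of effects and the called differences between controls. Receptor changes in whole prostate and the other epithelium changes were not checked in this way. In whole prostate (15 and 1), the higher count was 30 with a pseudocount of 64 and 25 with the filter at the median. It was 11 with a pseudocount of 1, 13 with no filter and 22 with array weights. Over all probe sets, higher calls in these 3 fits were 96, 85 and 397. A trended robust prior gave 32 higher and 2 lower. The 4 whole prostate arrays alone gave 5 higher, and the brightest probe set of each gene gave 0 lower. Higher calls over all probe sets moved as well, from 178 in the main fit. They were 549 with the pseudocount of 64, 455 with the filter at the median, 878 with the trended prior and 28 in the 4 arrays alone. In epithelium (0 and 0), 1 was higher with a pseudocount of 64 and 3 with the trended prior, against 33 and 116 of all probe sets. For the difference of effects (0 and 3), values as deposited and median centring each gave 1 higher and 5 lower, a pseudocount of 64 gave 1 and 15, the filter at the median 1 and 12, the trended prior 1 and 18, and a pseudocount of 1 or no filter 1 lower. Between controls (11 and 11), median centring gave 17 lower. With the stricter motif 9 promoters matched in place of 17. The causes were not tested.

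With 1 array left out, counts ranged from 2 to 12 higher and 0 to 1 lower in whole prostate, 6 to 11 higher and 4 to 11 lower between controls, and were 0 in both directions for epithelium and for the difference. A group with a lone array was assumed to vary like the others. Calls over all probe sets in whole prostate also fell in every such fit. Same-numbered samples did not deviate together (correlation 0.003 in whole prostate and 0.029 in epithelium), so the numbers were not taken as pairs. With the replicate number as a block the counts were 3 and 0 in whole prostate, 0 and 0 in epithelium, 0 and 0 for the difference, and 6 and 3 between controls. Over all probe sets the counts were 17 and 15, 0 and 0, 1 and 4, and 1357 and 1127, in the same order. Of the probe sets called higher in whole prostate, 3 kept the call in all 10 settings other than leaving out an array, those of Ifi27, Ifi27l2b and Usp18. Dim signal limits what can be read for 7 member probe sets under 30 units on every array.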
